A study of Mus musculus with 6 samples.

Results

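The acute phase and cytokine-induced vascular genes described here are 10 genes: Saa3, Lcn2, Lrg1, S100a8, S100a9, Socs3, Il6, Il1r1, Ptgs2 and Ch25h. They were taken by symbol from the 23329 genes counted in each library, and all 10 were among the 14838 genes that passed the low-count filter. The set was chosen by the count of Saa3, which was near 0 in libraries labelled WT and measurable in those labelled GLUT1EC-/-. Since that comparison of genotypes was known when the set was made, the values of the 10 genes in it are a description, with no test.

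The libraries are bulk RNA sequencing libraries of brain endothelial cells from C57BL/6 mice aged 8 weeks, lysed right after magnetic bead sorting (MACS) without culture. The study set mice whose endothelial cells were to lack GLUT1, labelled GLUT1EC-/-, against their WT littermates, with 3 libraries in each group. The labels do not name the promoter that drives the deletion, the exons removed or the age at deletion. As far as they say, no mouse was given a cytokine or another agent.

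Total counts were 31874662 to 39424384 per library. Slc2a1, the gene of GLUT1, stood at 3984, 4479 and 4172 CPM (the count scaled to library size with TMM factors) in the WT libraries, against 3735, 5414 and 3893 CPM in the libraries labelled GLUT1EC-/-, called knockout-labelled below. Its edgeR adjusted p was 0.921, so the labels could not be checked by the targeted gene and each direction below is between libraries as labelled. GLUT1EC-/- 2 had a TMM factor of 0.884 against 1.01 to 1.05 elsewhere, and values without it are given where it mattered. All 12 endothelial markers were detected, with sums of 17961 to 18207 CPM in WT and 16074 to 19643 CPM in knockout-labelled libraries. Summed microglia markers (12 of 12 in the files, 507 to 602 against 779 to 1614 CPM) and lymphocyte markers (10 of 10, 18.4 to 21.5 against 6.17 to 13.3 CPM) did not overlap between the groups, with or without their most abundant gene. Of the 12 microglia markers, 10 were higher and 2 lower by value, and not all shared the gap. In GLUT1EC-/- 2 the most abundant, Csf1r, was below every WT library (146 against 172 to 213 CPM). So was P2ry12, named after its values were seen (10.7 against 21.6 to 22.8 CPM). C1qc, the next most abundant, was above every WT library there (174 against 58.6 to 68.6 CPM). Some other sums turned on 1 gene, as seen when the most abundant marker was left out after the data were seen. Venous markers (10 of 10) summed to 4798 to 6543 against 8123 to 10459 CPM, and without Vwf to 2808 to 3421 against 2568 to 4881 CPM, with overlap. Oligodendrocyte markers (8 of 8) summed to 764 to 797 against 1246 to 3265 CPM, but without Mal they were lower in knockout-labelled libraries, at 366 to 441 against 322 to 364 CPM. None of these markers was at 0 in all libraries, and their part in the results below was not tested. In bulk RNA, fewer cells of a type and less RNA per cell cannot be told apart. The numbers in the library titles fall into the 200s (WT 1, WT 2 and GLUT1EC-/- 1) and the 500s (WT 3, GLUT1EC-/- 2 and GLUT1EC-/- 3), with no meaning given.

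As background, the acute phase response is the change in gene expression that follows infection or injury. The cytokines interleukin-1 and interleukin-6 drive it: interleukin-1 acts through its receptor on NF-kappaB, and interleukin-6 through gp130 and the Janus kinases on the transcription factor STAT3. Factors of the C/EBP family act with both. Brain endothelial cells carry the interleukin-1 receptor, and they are known to answer circulating cytokines with prostaglandin synthesis and with secreted proteins such as lipocalin 2. The 10 genes cover several steps of this response: a cytokine (Il6), a receptor (Il1r1), a feedback inhibitor (Socs3), enzymes that make lipid mediators (Ptgs2 and Ch25h), secreted proteins (Saa3, Lcn2 and Lrg1) and the calprotectin subunits (S100a8 and S100a9).

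Promoter sequence is shown because several of these genes are known targets of the same few factors. RefSeq promoter windows of GRCm38.p6, from 250 bases before to 50 bases after a start site, were found for all 10 genes, 11 windows in all since Il1r1 has 2. The C/EBP motif TTGCNNAA, searched like the others on both strands, was present in 7 of the 11, those of Saa3, Lcn2, S100a9, Il6, Ptgs2, Ch25h and 1 of Il1r1. Of all 32817 RefSeq windows of this length, 10.8% hold it. The STAT motif TTCNNNGAA was present in the Socs3 window only (8.29% of all windows), the AP-1 motif TGANTCA in that of Il6 only (7.81%) and TATAAA in 4, those of Lrg1, S100a8, S100a9 and Ch25h (13.6%). The TATAAA of S100a8 lay 30 to 25 bases before the start site and that of Ch25h 151 to 146 bases before it. Those of Lrg1 and S100a9 lay at or after the start site. The NF-kappaB consensus was in 2 windows, those of Il6 and of the other Il1r1 start (8.46%). A match describes the letters and not a bound site. Each line gives the 250 bases before the start site, 5′ to 3′ on the gene's strand, with motif matches in capitals, for a gene of each kind: secreted proteins, a cytokine and a feedback inhibitor.
Saa3, chr7:46715677-46715926, minus strand: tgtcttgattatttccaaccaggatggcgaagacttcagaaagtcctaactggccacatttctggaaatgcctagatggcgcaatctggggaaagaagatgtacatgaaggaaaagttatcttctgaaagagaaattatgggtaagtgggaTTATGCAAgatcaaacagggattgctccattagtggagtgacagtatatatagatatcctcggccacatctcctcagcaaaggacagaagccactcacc
Lcn2, chr2:32387740-32387989, minus strand: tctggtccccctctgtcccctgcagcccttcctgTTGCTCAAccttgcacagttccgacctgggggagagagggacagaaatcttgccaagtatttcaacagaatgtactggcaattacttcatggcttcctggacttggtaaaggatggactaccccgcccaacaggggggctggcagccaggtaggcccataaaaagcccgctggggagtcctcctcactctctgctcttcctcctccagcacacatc
Il6, chr5:30012864-30013113, plus strand: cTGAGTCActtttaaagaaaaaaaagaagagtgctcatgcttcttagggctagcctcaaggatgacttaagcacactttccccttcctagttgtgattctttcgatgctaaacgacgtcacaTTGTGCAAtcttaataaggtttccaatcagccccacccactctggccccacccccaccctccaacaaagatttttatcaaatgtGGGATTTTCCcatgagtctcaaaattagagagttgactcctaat
Socs3, chr11:117969367-117969616, minus strand: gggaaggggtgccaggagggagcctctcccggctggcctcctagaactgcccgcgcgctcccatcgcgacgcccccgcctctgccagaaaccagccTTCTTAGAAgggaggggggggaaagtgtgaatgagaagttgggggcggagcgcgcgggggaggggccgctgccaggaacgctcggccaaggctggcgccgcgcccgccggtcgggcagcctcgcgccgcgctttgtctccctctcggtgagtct

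In the Saa3 window the capitals are a C/EBP match, at 99 to 92 bases before the start site, and in the Lcn2 window another, at 216 to 209 bases before it. The Il6 window holds, in order, an AP-1, a C/EBP and an NF-kappaB match, the last at 44 to 35 bases before the start. The Socs3 window holds a single STAT match. No match overlapped another in these windows.

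Across the 10 genes, 7 were higher and 3 lower by value in knockout-labelled libraries, and their median log2 fold change was 0.54, against 0.01 over all tested genes. In the fit over all genes 1 of the 10, Saa3, passed the threshold (edgeR, adjusted p under 0.05), where 1.31% of the 14838 tested genes passed. The values of the groups did not overlap for 3 of the 10, Saa3, Il6 and Il1r1, all higher in knockout-labelled libraries. Of all tested genes, 22.9% did not overlap, and 11.7% did not overlap and were higher. Nothing is read from these shares, since the genes were chosen with this comparison known.

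**Figure D1:**
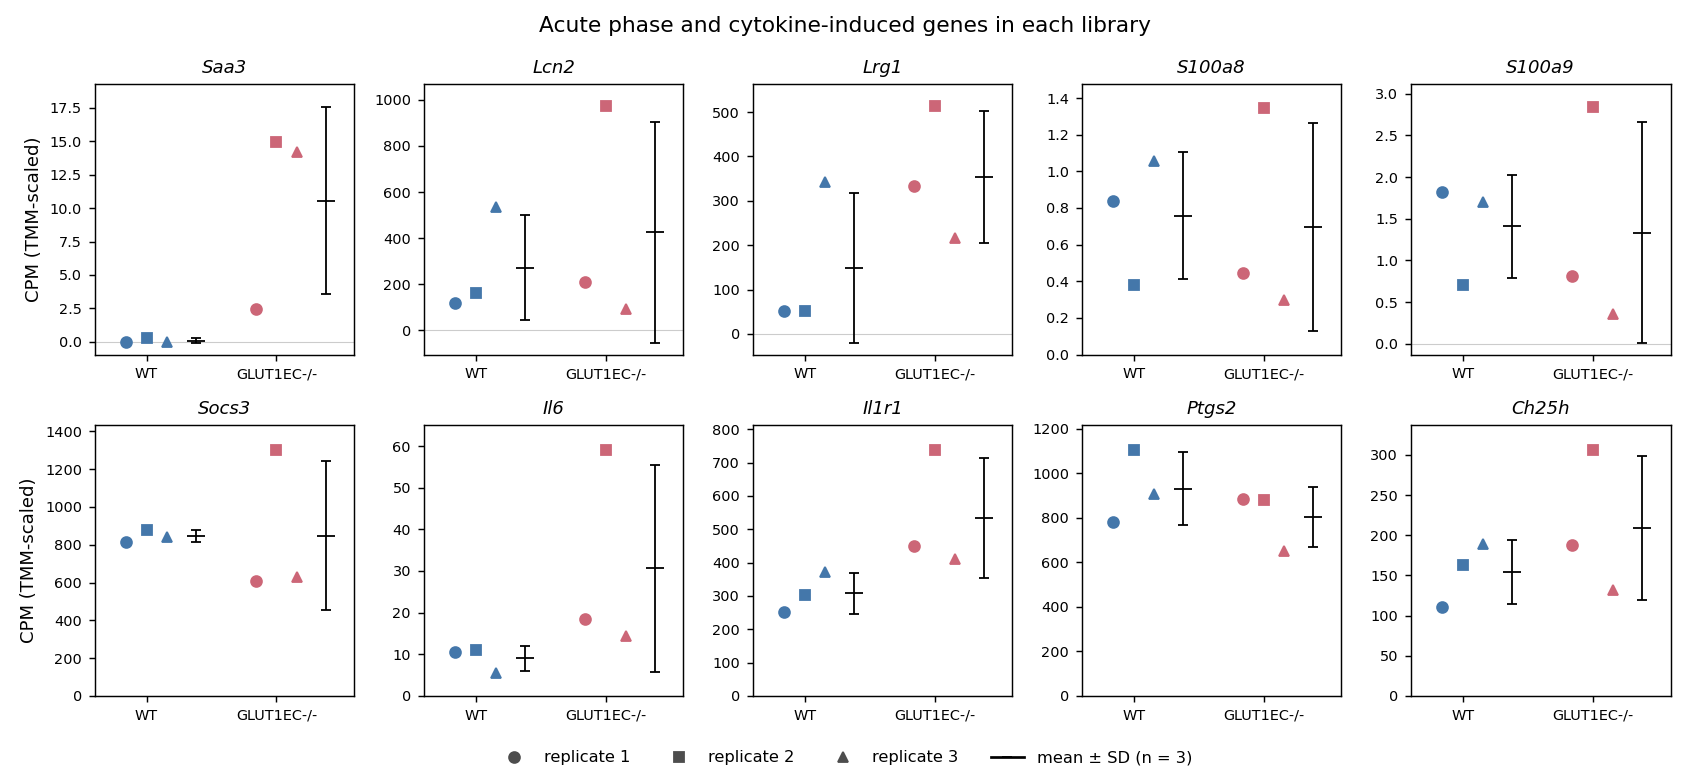
Level of each of the 10 genes (CPM, linear axes that differ between panels) in the 3 WT and 3 GLUT1EC-/- libraries, with a symbol for each replicate and the mean ± SD (n = 3) beside them. Saa3, Il6 and Il1r1 did not overlap between the groups, and GLUT1EC-/- 2, the square, was the highest library of its group in 9 of the 10 panels.

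Saa3, a serum amyloid A protein made largely outside the liver, had the widest difference. Its 4 exons lie on the minus strand of chromosome 7 (GRCm38, 46711998 to 46715700), and it shares no run of 100 bases with another annotated transcript. Raw counts were 0, 10 and 0 in the WT libraries, against 95, 501 and 524 in the knockout-labelled ones. Scaled, these are 0, 0.292 and 0 CPM against 2.48, 14.97 and 14.2 CPM. Every knockout-labelled library was above every WT library, and GLUT1EC-/- 1 was well below the other 2. The means were 0.0974 ± 0.169 and 10.55 ± 7.0 CPM (SD, n = 3 each), a ratio of 108, and the fitted log2 fold change was 6.75 (SE 1.099). The WT mean rests on the 10 counts of WT 2: a count of 0 allows up to 0.0928 CPM in WT 1 and 0.0739 CPM in WT 3 (3 counts per library). With WT 2 left out, Saa3 was at least 126.5-fold higher, and with WT 3 left out the log2 fold change was 6.11.

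The difference in Saa3 was present in both number series. It was 17.0-fold in the 200s and at least 197-fold in the 500s, where the WT library was at 0. Saa3 did not pass the threshold without GLUT1EC-/- 2 (log2 fold change 6.41), without any 1 of the WT libraries, with the number series as a term or in limma-voom. Over all genes 0, 1 and 5 passed without WT 1, WT 2 and WT 3, and 14 with the number series. There were 862 without GLUT1EC-/- 2 and 148 in limma-voom. The other serum amyloid A genes, named here for their kinship with it and after their values were seen, were too low to be tested. Saa1 had 2, 3 and 0 counts in WT libraries and 3, 20 and 64 in knockout-labelled ones. Saa2 had 3, 2 and 0 against 14, 4 and 48, and Saa4 had 1, 0 and 0 against 11, 3 and 16. GLUT1EC-/- 3 was the highest library for all 3 of these genes. GLUT1EC-/- 2 was the lowest of its group for Saa2 and Saa4, at 4 and 3 counts, while its Saa3 level was close to that of GLUT1EC-/- 3. Saa1 and Saa2 are close copies, so reads may be split between them.

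Lcn2 encodes lipocalin 2, a secreted protein that binds bacterial siderophores. It has 7 exons on the minus strand of chromosome 2 (32384633 to 32388252). WT libraries held 120, 163 and 534 CPM and knockout-labelled ones 209, 973 and 92.1 CPM. The lowest and the highest of the 6 libraries thus both carried the GLUT1EC-/- label. The log2 fold change was 0.64 (SE 0.85). It was -0.86 without GLUT1EC-/- 2 and 1.58 without WT 3, and within the number series 0.56 (200s) and 0.00 (500s).

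Lrg1 encodes leucine-rich alpha-2-glycoprotein, a secreted protein known to modulate TGF-beta signalling in endothelial cells through endoglin. It has 2 exons on the minus strand of chromosome 17 (56119678 to 56122001). WT libraries held 51.9, 50.8 and 343 CPM and knockout-labelled ones 333, 513 and 217 CPM. WT 3 lay inside the range of the other group, and WT 1 and WT 2 lay well below it. The log2 fold change was 1.25 (SE 0.72), and 2.78 without WT 3. In the 200s the fold was 6.48 and in the 500s 1.06. Serpina3n, an acute phase inhibitor of serine proteases chosen for mention after its values were seen, also had WT 3 and GLUT1EC-/- 2 as the highest of their groups, with 4.83, 3.36 and 59.5 CPM against 50.8, 308 and 77.2 CPM. It did not pass (edgeR adjusted p = 0.326, log2 fold change 2.68, SE 1.13).

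S100a8 and S100a9 encode the subunits of calprotectin, which is abundant in neutrophils. Both lie on chromosome 3, S100a8 on the plus strand (90668978 to 90670035) and S100a9 on the minus strand (90692632 to 90695721), with 3 exons each. S100a8 had 27, 13 and 43 counts in WT libraries (0.835, 0.380 and 1.06 CPM) and 17, 45 and 11 in knockout-labelled ones (0.444, 1.34 and 0.298 CPM). S100a9 had 59, 24 and 69 counts (1.83, 0.701 and 1.70 CPM) against 31, 95 and 13 (0.809, 2.84 and 0.352 CPM). For both genes GLUT1EC-/- 2 was the highest and GLUT1EC-/- 3 the lowest of the 6 libraries, and the groups overlapped. The log2 fold changes were -0.14 (SE 0.64) and -0.09 (SE 0.72), and -1.04 and -1.28 without GLUT1EC-/- 2. Without WT 3 they were above 0, at 0.19 and 0.07.

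Neutrophil markers were low as well. Of 15 listed, 14 were in the files, and their summed level was 18.1 to 21.2 CPM in WT and 18.3 to 27.2 CPM in knockout-labelled libraries. Stfa2 was at 0 in all 6 libraries, Stfa1 had at most 1 count, and the granule genes Elane and Camp had at most 9 and 5. Csf3r, the receptor of granulocyte colony-stimulating factor, which microglia also carry, made up most of the sum in each library. Retnlg, the next most abundant, had 104, 98 and 175 counts in WT libraries and 55, 50 and 5 in knockout-labelled ones. Without Csf3r the markers summed to 6.43 CPM or more in WT and to 2.41 to 8.04 CPM in knockout-labelled libraries, with overlap. The markers did not all share the order of S100a8 and S100a9, as genes named after their values were seen show. Ngp (9, 4 and 10 counts against 17, 47 and 2), Mmp9 (58, 57 and 95 against 48, 98 and 17) and the chemokine receptor Cxcr2 (4, 5 and 25 against 6, 29 and 8) had their highest count in GLUT1EC-/- 2. That library was the lowest of the 6 for Csf3r (10.7, 11.7 and 11.2 CPM against 15.8, 10.2 and 24.8 CPM) and for Mpo (13, 14 and 29 counts against 15, 2 and 25), and it was below every WT library for Ltf (26, 25 and 42 counts against 13, 17 and 12) and Padi4 (9, 7 and 11 against 0, 2 and 5). Within the knockout-labelled group most markers with any count were highest in GLUT1EC-/- 2 by CPM, as S100a8 and S100a9 were, Ltf and Retnlg among them. Csf3r, Mpo, Padi4 and Camp were highest in GLUT1EC-/- 3. The part of neutrophils in the S100a8 and S100a9 values was not tested.

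Il6 encodes interleukin-6 itself and has 5 exons on the plus strand of chromosome 5 (30013114 to 30019981). WT libraries held 10.4, 10.96 and 5.57 CPM and knockout-labelled ones 18.4, 59.2 and 14.3 CPM. The groups did not overlap, and GLUT1EC-/- 2 stood far above the rest. The means were 8.98 ± 2.97 and 30.6 ± 24.8 CPM (SD, n = 3 each). The log2 fold change was 1.77 (SE 0.53), or 0.86 without GLUT1EC-/- 2. It was 1.72-fold in the 200s and 6.60-fold in the 500s. Il6 passed the threshold in DESeq2 only, of the 3 tools run.

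Il1r1 encodes the signalling receptor of interleukin-1 and has 11 exons on the plus strand of chromosome 1 (40225080 to 40317257). WT libraries held 251, 301 and 372 CPM and knockout-labelled ones 451, 739 and 411 CPM, again without overlap. The means were 308 ± 61 and 534 ± 179 CPM (SD, n = 3 each). The log2 fold change was 0.79 (SE 0.25) and lay between 0.48 and 0.95 when any 1 library was left out. Within the number series it was 0.71 and 0.63. Of the 3 genes whose groups did not overlap, Il1r1 had the smallest fold and the narrowest range over the libraries left out. Of the venous markers above, 7 of 10 were higher and 3 lower by value. Vwf, the most abundant and the 1 that passed, was at 2590 CPM on average in WT and 5584 CPM in knockout-labelled libraries (edgeR adjusted p = 0.0372), and Icam1, the next, at 1508 and 1586 CPM. Their part in the Il1r1 values was not tested.

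Socs3 encodes the inhibitor that STAT3 induces and that shuts gp130 signalling down. It has 2 exons on the minus strand of chromosome 11 (117966079 to 117970047). WT libraries held 815, 877 and 842 CPM, a narrow range, and knockout-labelled ones 608, 1304 and 632 CPM. GLUT1EC-/- 2 lay above every WT library and the other 2 below every one. The means were 845 ± 31 and 848 ± 396 CPM (SD, n = 3 each) and the log2 fold change was 0.01 (SE 0.28). Its sign changed in 7 of 15 other settings, upper-quartile scaling (-0.05) and library size alone (-0.08) among them. Without GLUT1EC-/- 2 it was -0.45, and Socs3 was then the 1 gene of the 10 past the threshold, on the lower side. In that fit 862 of all 15053 tested genes passed, 332 of them lower.

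Ptgs2 encodes cyclooxygenase-2, which makes prostaglandin H2 from arachidonic acid, and has 10 exons on the plus strand of chromosome 1 (150100031 to 150108227). WT libraries held 780, 1106 and 905 CPM and knockout-labelled ones 883, 878 and 650 CPM. The groups overlapped, and the log2 fold change was -0.21 (SE 0.19), between -0.33 and -0.07 when any 1 library was left out. Ptgs2 was thus lower by value in each of these sets. With all 6 libraries the difference was smaller than the spread within groups, an SD of 0.25 on the log2 scale. The difference was larger than that 6-library SD without WT 1 (-0.33), GLUT1EC-/- 1 (-0.284) or GLUT1EC-/- 2 (-0.285), and with library size alone (-0.267).

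Ch25h encodes cholesterol 25-hydroxylase in a single exon on the minus strand of chromosome 19 (34473778 to 34475164). WT libraries held 111, 163 and 189 CPM and knockout-labelled ones 188, 307 and 131 CPM. The groups overlapped, and the log2 fold change was 0.44 (SE 0.31), or 0.05 without GLUT1EC-/- 2. Ch25h shares 159 exon bases with the non-coding gene Gm26902 on the other strand. With no strand setting given, its count is uncertain to that extent, and no other gene of the 10 has exons that overlap another gene.

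**Figure D2:**
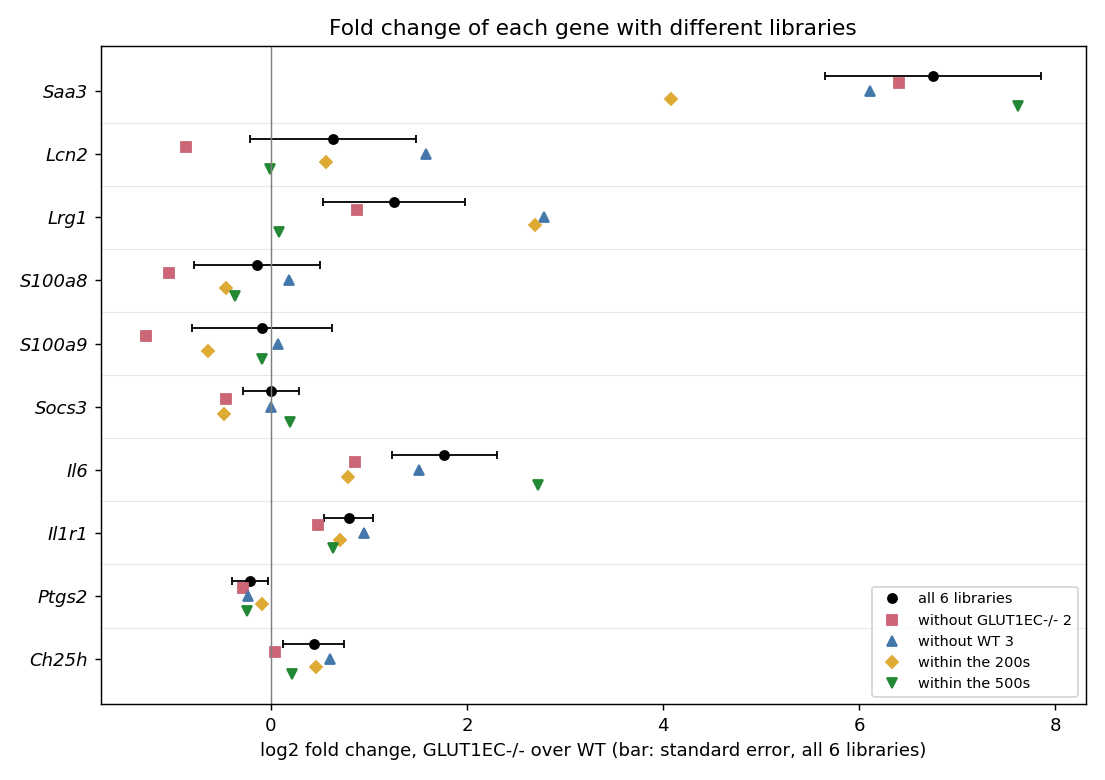
Log2 fold change (GLUT1EC-/- over WT) of each gene with all 6 libraries (black, bar: standard error), without GLUT1EC-/- 2, without WT 3 and within each number series, where values are log2 ratios of mean CPM and that of Saa3 in the 500s is a lower bound. Saa3, Il6, Il1r1, Lrg1 and Ch25h were above 0 in each of these sets, Ptgs2 was below 0, and the other 4 genes lay on both sides.

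The spread between libraries of 1 genotype was not part of the rule, except that the near-0 WT values of Saa3 were. Measured as the within-group SD of log2(CPM + 0.1), the spread was 1.46 for Lcn2, 1.30 for Saa3, 1.20 for Lrg1 and 1.09 for S100a9, where the median of all tested genes was 0.26. The value of Saa3 depends on the 0.1 added, since its WT counts were 0, 10 and 0, and Saa3 passed the low-count filter through the other group only. These 4 values were at or above the 98.9th percentile of the tested genes. Il6 (0.86) and S100a8 (0.83) were at percentiles of 96.6 and 96.2. Ch25h, Socs3 and Il1r1 followed at 0.52, 0.44 and 0.38, and Ptgs2, at 0.25, was the 1 gene of the 10 below the median. The lowest counts of S100a8 and S100a9 were 11 and 13, where counting error is large, whereas Lcn2 and Lrg1 had at least 3402 and 1679 counts in every library. The levels of Lcn2 thus differed 4.45-fold between the highest and lowest WT library and 10.6-fold between knockout-labelled ones.

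**Figure D3:**
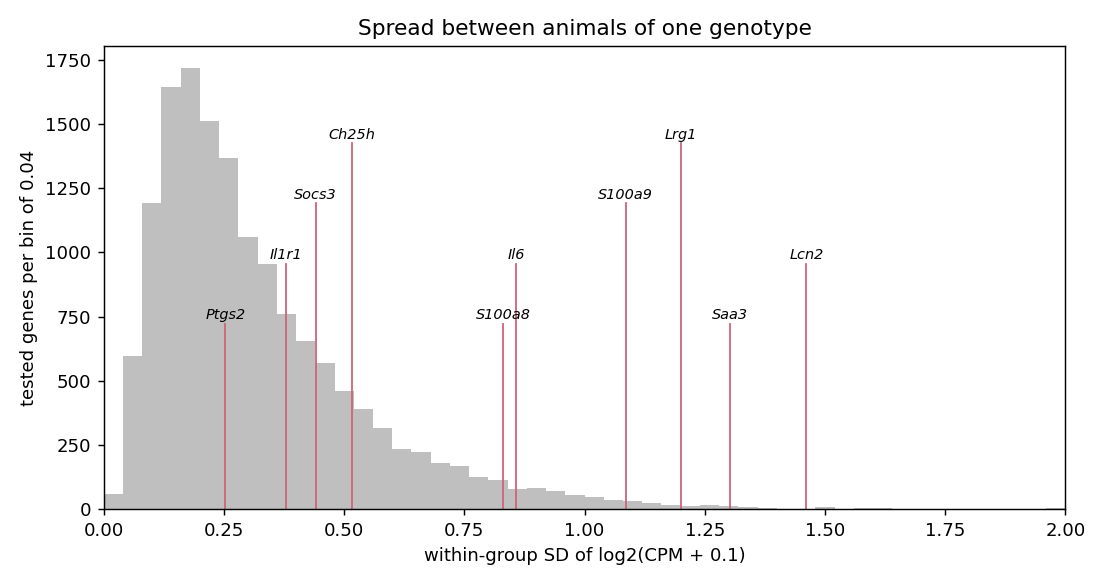
Histogram of the within-group SD of log2(CPM + 0.1) over the tested genes (bins of 0.04, with 7 genes beyond the axis), with a line for each of the 10 genes at its own value. The lines of Lcn2, Saa3, Lrg1 and S100a9 stand in the far right tail, at 1.09 or above, and that of Ptgs2 stands near the median.

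GLUT1EC-/- 2 was the highest of its group for 9 of the 10 genes, all but Ptgs2. For Saa3 this held narrowly after scaling (14.97 CPM against 14.2 CPM in GLUT1EC-/- 3) and not by raw count (501 against 524). Of all tested genes, 42.0% were highest in that library within their group. Among WT libraries, WT 3 was highest for 5 of the 10 (40.6% of tested genes), WT 2 for 4 (29.9%) and WT 1 for 1 (29.5%). Against the mean of the other 2 libraries of its group, GLUT1EC-/- 2 was 6.47-fold higher for Lcn2, 4.89-fold for S100a9, 3.63-fold for S100a8, 3.62-fold for Il6 and 2.11-fold for Socs3. WT 3 was 6.68-fold higher than the other WT libraries for Lrg1 and 3.77-fold for Lcn2, while its Il6 was 0.521 of theirs. What sets these libraries apart was not tested.

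On a scale per length (CPM per kilobase of annotated exon), the order of mean levels in WT was Socs3 (292 ± 11), Ptgs2 (203 ± 36), Ch25h (111 ± 29), Lrg1 (106 ± 120), Lcn2 (104 ± 87), Il1r1 (48.4 ± 9.6), Il6 (3.70 ± 1.22), S100a9 (2.70 ± 1.18), S100a8 (1.09 ± 0.50) and Saa3 (0.0374 ± 0.0647, SD, n = 3 each). Socs3 lay above the other genes and Saa3 below them without overlap. Ptgs2 did not overlap with Ch25h, but through WT 3 both Lrg1 and Lcn2 reached into its range. Il1r1 overlapped with Lrg1 and Lcn2, Il6 with S100a9, and S100a9 with S100a8, and these neighbours cannot be ordered beyond their spread. In knockout-labelled libraries Lrg1 (252 ± 106) came next to Socs3 (293 ± 137), and Saa3 (4.05 ± 2.68) came above S100a9 (2.55 ± 2.54) and S100a8 (1.002 ± 0.817), with overlap between each of these neighbours.

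The pathways around the 10 genes were followed in 8 lists that leave them out, with 149 genes of which 128 could be tested. Of these, 7 rose, 0 fell and 121 did not pass (edgeR, adjusted over all tested genes), 5.47% against 1.31% of all tested genes. The counts with an unadjusted p under 0.05 were 35 of 128 (27.3%) and 14.5% of all tested genes. DESeq2 called 16 higher and 4 lower, and limma-voom 6 and 0. The median log2 fold change of the 128 was 0.12, against 0.01 over all tested genes. Nothing is read from these shares and medians, since the lists were chosen with earlier results of these data known. The 7 were Itih3, Itih4, Timp1, Lif, Ptgs1, Cyp7b1 and S100a6. All 7 passed without GLUT1EC-/- 2, where 16 of the 130 listed genes then tested rose and 11 fell. Of all 15053 genes tested in that fit, 530 rose and 332 fell. None of the 7 passed without GLUT1EC-/- 1, without any 1 of the WT libraries or with the number series as a term. Few genes of the whole series passed in those settings. There were 32 without GLUT1EC-/- 1, 14 with the number series, and 0, 1 and 5 without WT 1, WT 2 and WT 3. Their log2 ratios were 0.94 to 3.35 within the 200s and 1.17 to 3.48 within the 500s.

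Among other acute phase proteins, 3 of 15 tested genes rose, 0 fell and 12 did not pass, with a median of 0.82. Itih3 and Itih4 encode heavy chains of the inter-alpha-trypsin inhibitor family, plasma proteins of which several bind hyaluronan. Itih3 had 1.73, 2.22 and 2.39 CPM in WT libraries and 8.17, 7.86 and 9.61 CPM in knockout-labelled ones (edgeR adjusted p = 0.0148, log2 fold change 2.01, SE 0.23). Itih4 had 1.36, 1.46 and 2.44 against 9.27, 11.1 and 6.93 CPM (edgeR adjusted p = 0.0184, log2 fold change 2.37, SE 0.31). Timp1, an inhibitor of matrix metalloproteinases, had 1.05, 1.78 and 3.47 against 14.5, 26.9 and 10.6 CPM (edgeR adjusted p = 0.0327, log2 fold change 3.03, SE 0.49). Each of the 3 was higher in every knockout-labelled library than in any WT library. DESeq2 called 4 of the 15 higher and 1 lower, and limma-voom 3 and 0. By value 9 of the 15 were higher and 6 lower. Hp, haptoglobin, an acute phase protein of the liver that binds free haemoglobin, named after its values were seen, is the gene that DESeq2 called lower. It had 4.61, 12.04 and 2.93 CPM in WT libraries and 0.601, 1.55 and 0.325 CPM in knockout-labelled ones, without overlap, and did not pass in edgeR (adjusted p = 0.089, log2 fold change -2.99, SE 0.69). The other 14 listed genes had counts too low to be tested. Of 12 monocyte and macrophage markers, set beside Hp after the data were seen, 5 were higher and 7 lower by value. The 2 that passed, both lower, were Cd300e and Treml4 (edgeR adjusted p = 0.012 and 0.0164). Lyz2 and Mrc1, the most abundant, had log2 fold changes of -0.75 and 0.21. The summed level of the 12 overlapped between the groups, and their part in the Hp values was not tested.

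Some markers of other cells were also higher in knockout-labelled libraries. Of 10 fibroblast markers, all in the files and none at 0 in all libraries, 9 were higher by value and 1 passed. The sum of all 10, 380 to 530 CPM in WT and 372 to 684 CPM in knockout-labelled libraries, is mostly Igf2, which was lower by value (337 against 245 CPM on average, edgeR adjusted p = 0.352). Without Igf2 the sum was 111 to 129 against 182 to 412 CPM, with no overlap. Dcn, the gene of the proteoglycan decorin, rose, with 18.3, 19.7 and 20.6 CPM in WT libraries and 68.2, 68.0 and 103 CPM in knockout-labelled ones (edgeR adjusted p = 0.00997, log2 fold change 2.03, SE 0.19). Of 10 astrocyte markers, 6 were higher and 4 lower by value and 1 passed. It was Gfap, the filament protein of reactive astrocytes, named after its values were seen, with 5.60, 5.90 and 5.45 CPM in WT libraries and 36.4, 36.6 and 59.8 CPM in knockout-labelled ones (edgeR adjusted p = 0.00669, log2 fold change 2.97, SE 0.23). The part of these cells, and of microglia, in the changes of Itih3, Itih4 and Timp1 was not tested.

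Of 16 tested ligands, receptors and kinases of the interleukin-6 family, 1 rose, 0 fell and 15 did not pass, with a median of 0.12. Lif, leukaemia inhibitory factor, a ligand that signals through gp130 as interleukin-6 does, had 2.38, 1.26 and 0.961 CPM in WT libraries and 9.01, 15.3 and 6.09 CPM in knockout-labelled ones (edgeR adjusted p = 0.0333, log2 fold change 2.73, SE 0.45). Lif did not pass in limma-voom. Il11, another such ligand, named after its values were seen, had 1.92, 2.02 and 2.05 against 4.80, 5.83 and 4.03 CPM and missed the threshold (edgeR adjusted p = 0.0507, log2 fold change 1.29, SE 0.25). Of the 6 ligands tested, 3 (Lif, Il11 and Osm) were higher without overlap between the groups, as were 11.7% of all tested genes, and Cntf (log2 fold change -0.08), Clcf1 (0.20) and Ctf1 (-0.47) overlapped. The receptor chains, named for their roles after their values were seen, had smaller differences: the log2 fold change of Il6st, the gene of gp130, was -0.22 (SE 0.15) and that of Il6ra, which binds interleukin-6, was 0.12 (SE 0.17).

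Downstream of STAT3, 0 of 20 target and feedback genes passed edgeR's test, with a median of 0.04. At an unadjusted p under 0.05 there were 6, DESeq2 called 2 higher and limma-voom 0. The most abundant of them were Junb, an AP-1 subunit, with a log2 fold change of -0.25 (SE 0.22), and Mcl1, a survival factor of the Bcl-2 family, with one of -0.015 (SE 0.19). Without GLUT1EC-/- 2, where 332 of all 15053 tested genes passed as lower, Junb did so (log2 fold change -0.55, edgeR adjusted p = 0.0337), as did Socs3. The C/EBP factors on this list, whose motif is in the promoter windows above and which were named after their values were seen, differed in direction by value. Cebpd had 139, 183 and 140 CPM in WT libraries and 187, 423 and 160 CPM in knockout-labelled ones, with GLUT1EC-/- 2 highest, and Cebpb 81.9, 89.0 and 92.3 against 51.6, 79.0 and 53.6 CPM, without overlap. Neither passed (edgeR adjusted p = 0.388 and 0.242).

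In the interleukin-1 pathway around Il1r1, 0 of 20 genes passed edgeR's test, with a median of 0.14. At an unadjusted p under 0.05 there were 2, DESeq2 called 1 higher and limma-voom 0. Its most abundant genes were Irak1, a kinase of the receptor complex (log2 fold change 0.16, SE 0.14), and Tab2, an adaptor of the TAK1 kinase (0.45, SE 0.29).

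Enzymes and receptors around Ptgs2 and Ch25h gave 1 call each. In the prostaglandin list 1 of 18 rose, 0 fell and 17 did not pass, with a median of 0.10. Ptgs1, the constitutive cyclooxygenase, had 9.53, 12.3 and 12 CPM in WT libraries and 21.0, 26.1 and 27.7 CPM in knockout-labelled ones (edgeR adjusted p = 0.0269, log2 fold change 1.15, SE 0.18). In the oxysterol list 1 of 13 rose, 0 fell and 12 did not pass, with a median of 0.19. Cyp7b1, the hydroxylase that acts on 25-hydroxycholesterol, the product of Ch25h, had 4.08, 4.47 and 4.41 CPM in WT libraries and 10.1, 11.1 and 9.31 CPM in knockout-labelled ones (edgeR adjusted p = 0.0239, log2 fold change 1.24, SE 0.18). Both genes were higher in every knockout-labelled library than in any WT library, while the groups overlapped for Ptgs2 and Ch25h.

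Of 10 other S100 genes tested, 1 rose, 0 fell and 9 did not pass, with a median of 0.12. S100a6, calcyclin, had 6.90, 7.42 and 4.95 CPM in WT libraries and 22.1, 16.7 and 21.3 CPM in knockout-labelled ones (edgeR adjusted p = 0.0179, log2 fold change 1.64, SE 0.21). Among 16 receptors and partners of the secreted proteins, 0 passed edgeR's test, with a median of 0.07. At an unadjusted p under 0.05 there were 6, DESeq2 called 1 higher and 3 lower and limma-voom 0. The most abundant were Bsg, basigin, described as a receptor of S100A9, with a log2 fold change of -0.82 (SE 0.27), and Eng, endoglin, the partner of LRG1, with one of 0.33 (SE 0.15). Bsg had 6135, 5834 and 6851 CPM in WT libraries and 3965, 2090 and 4605 CPM in knockout-labelled ones, without overlap but short of the threshold (edgeR adjusted p = 0.214). Without GLUT1EC-/- 2, where 332 of all 15053 tested genes passed as lower, Bsg did so too (log2 fold change -0.56, edgeR adjusted p = 0.0411).

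**Figure D4:**
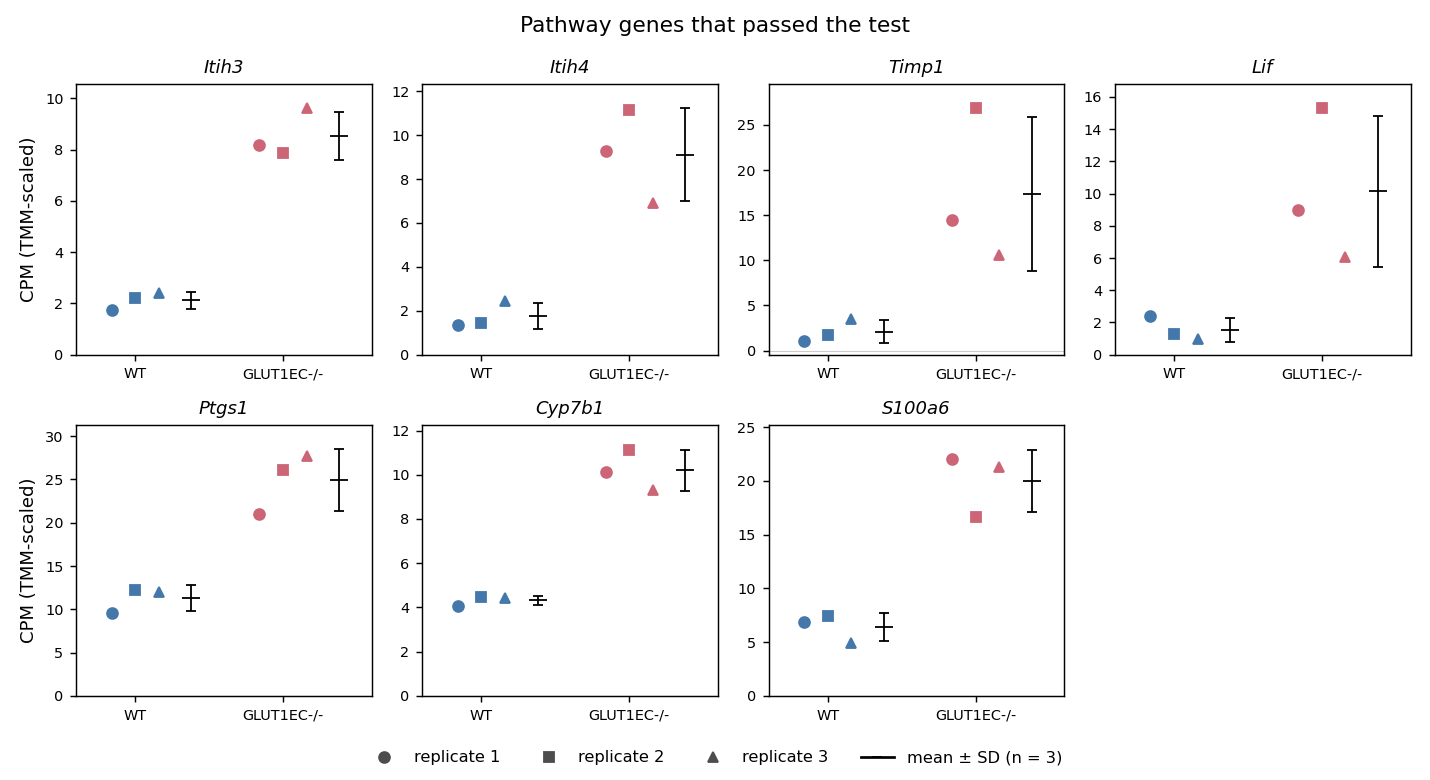
Level (CPM, linear axes that differ between panels) of the 7 pathway genes that passed the test, in the 3 WT and 3 GLUT1EC-/- libraries with the mean ± SD (n = 3). In every panel the 3 GLUT1EC-/- libraries lie above the 3 WT libraries, from Cyp7b1 at 4.08 to 4.47 against 9.31 to 11.1 CPM to Timp1 at 1.05 to 3.47 against 10.6 to 26.9 CPM.

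The 5 genes whose log2(CPM + 0.1) was most like that of Saa3 over the 6 libraries were sought by Pearson correlation among 12351 genes. These averaged 1 CPM or more, with predicted genes (Gm numbers and Rik clones) left out. The 5 were Eif2s1, a subunit of a translation initiation factor, Colec12, a scavenger receptor, Pde8b, a phosphodiesterase, Snap29, a SNARE protein, and Paqr5, a membrane progestin receptor. Their Pearson r with Saa3 was 0.988 to 0.992, over points that share the split into genotypes. The measure takes no account of size: these genes had folds of 1.17 to 1.63. None of the other 9 acute phase and cytokine-induced genes was among them, but S100a8, below 1 CPM on average, was not ranked.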

How the data were processed

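Per the submitters' processing notes, STAR, featureCounts and the build GRCm38 were used. Versions, annotation and strand setting are not given in the sources used here. Per the labels' protocols, mRNA libraries were stranded. The authors deposited raw counts per gene symbol for each library. Libraries were grouped by their genotype label. Nothing in the labels but a number in each title says that they came from separate animals, so p-values measure the spread between these libraries. Floors cover counting error only.

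From the counts, edgeR 4.0.16 (R 4.3.3) fitted a quasi-likelihood F test of genotype with TMM factors, robust dispersions and filterByExpr (minimum count 10). Adjustment was by Benjamini-Hochberg over 14838 genes, with a threshold of 0.05. A standard error is the size of the log2 fold change over the root of F. The code was tested on simulated data, where 14.1% of the DESeq2 calls were false, against 3.95% for edgeR and 3.36% for limma-voom. In those data 200 genes were changed by 2-fold or 4-fold. Their spread followed the trend of dispersion with level, and no library was set apart. The rates therefore need not hold for the real libraries. Loci are from GENCODE M21 on GRCm38, promoters from RefSeq.

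The 10 genes and all lists were chosen with earlier results of these data known. Named genes are the 10, Slc2a1, up to 4 called genes per pathway list or else the 2 most abundant, the 2 most abundant markers of a list set beside a gene, and the 5 most like Saa3. Other genes were named after their values were seen (the further serum amyloid A genes, Serpina3n, Hp, Il6ra, Il6st, the other interleukin-6 family ligands, Cebpb, Cebpd, Gfap, P2ry12, Cd300e, Treml4 and the other neutrophil markers). Other settings were other scalings and filters, DESeq2 1.42.0, limma-voom (limma 3.58.1), non-robust dispersions, the title number series in the model, and single libraries left out. Values within a number series, and marker sums without the most abundant marker, were added after the data were seen.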

Additional observations from a re-analysis of the deposited data

How the results depend on the processing

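The 194 calls over all genes became 879 with DESeq2, 14 with the number series in the model and 429 at an adjusted p of 0.1. With 1 library left out they ranged from 0, without WT 1, to 862, without GLUT1EC-/- 2. The 7 calls among the pathway genes became 20 with DESeq2 and 0 with the number series, and 0 to 27 when 1 library was left out. Of the 10 genes 1 passed, against 2 with DESeq2, 0 with limma-voom and 0 with the number series, and 0 to 1 when 1 library was left out. The cause was not tested. Leaving out WT 1, WT 2 or WT 3 ended the calls of Saa3 and of all 7 pathway genes, and leaving out GLUT1EC-/- 1 ended those of the 7. These sets left 0, 1, 5 and 32 calls over all genes, in that order. Genes without a call changed sign in some sets: with 1 library left out Mcl1 ranged from -0.21 to 0.14 (0.14 without GLUT1EC-/- 3 and 0.0083 without WT 2) and Tab2 from -0.0044, without GLUT1EC-/- 2, to 0.68. With a prior count of 2 the log2 fold changes of Saa3 and Il6 were 6.12 and 1.76. No paired analysis was possible because the replicate numbers used here only follow accession order, and the numbers in the library titles are shared by no libraries of the 2 groups. The planned floor for a group at 0 did not apply with all 6 libraries. Depth limits S100a8, S100a9 and the WT level of Saa3, which rest on few counts.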
